A study of Mus musculus with 147 samples.

Results

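Tns1 and Cd24a are 2 of the 50686 genes counted in a study of mouse macrophages under metabolic challenge. They were selected on measured values: in peritoneal macrophages of mice given a high-fat diet and streptozotocin (STZ, a toxin of the insulin-producing beta cells), Tns1 stood far above and Cd24a far below its level on normal diet. For these 2 genes the 3 diet contrasts of the peritoneal libraries are therefore described without a test, and tests of them are given only for other libraries. The peritoneal libraries, each made from 100000 sorted cells, came from mice on normal chow (n = 5), on high-fat diet for 8 weeks (n = 4), and on the same 8-week diet with STZ added at week 4 (n = 5), in 5 cohorts. Every STZ mouse thus also ate the high-fat diet, no group received STZ on chow, and the series' own text says that STZ ablated the islets and caused hyperglycemia. Islet macrophages (400 cells a library) of the same 3 treatments gave 4, 4 and 3 libraries, and microglia (5000 cells, other cohorts) gave 4 each. A second experiment compared a 12 h fast with the same fast followed by 2 h of chow in peritoneal macrophages (8 and 8 libraries), blood monocytes, microglia and the macrophages of colon and adipose tissue (8 and 9 each), and Kupffer cells and islet macrophages (6 and 7 each), all from 400 cells. The sources used here do not give strain, sex or age. In the diet experiment islet and peritoneal libraries carry the same cohort numbers, so mice may be shared between them.

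Tensin 1, the product of Tns1, is a large cytoplasmic adaptor that binds the tails of integrins and actin filaments and sits at the adhesions by which cells hold and pull on matrix. CD24, the product of Cd24a, is a very small, heavily glycosylated surface protein held in the membrane by a glycosylphosphatidylinositol (GPI) anchor. It is a classical marker of B cells, granulocytes and many epithelia, a ligand of P-selectin, and a partner of the inhibitory lectin Siglec-G. Resident macrophages of the peritoneal cavity are mostly large peritoneal macrophages, which depend on the transcription factor GATA6, beside a smaller population of monocyte-derived cells rich in MHC class II.

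Tns1 lies on the minus strand of chromosome 1, from 73910231 to 74124449 (GRCm38, GENCODE M21), with 43 exon blocks that sum to 16010 bases and a longest transcript of 9966 bases. Cd24a lies on the plus strand of chromosome 10, from 43578284 to 43584265, with 4 exon blocks of 2580 bases in all and a longest transcript of 1816 bases. The exons of neither gene overlap another annotated gene. Because the counted reads of Cd24a may be shared with a copy, its whole coding sequence of 231 bases is shown (start and stop codon in capitals, from the GENCODE M21 transcript), which spans 43579254 to 43579322 and 43582604 to 43582765 on chromosome 10 and encodes 76 residues.
Cd24a coding sequence: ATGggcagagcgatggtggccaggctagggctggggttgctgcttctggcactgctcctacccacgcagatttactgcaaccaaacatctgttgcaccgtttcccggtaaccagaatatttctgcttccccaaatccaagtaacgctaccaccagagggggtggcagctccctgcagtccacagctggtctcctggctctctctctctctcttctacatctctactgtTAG
Of the 182 windows of 50 bases in this coding sequence, 69 also occur in the processed pseudogene Gm6212 (chromosome 14, 119644012 to 119644231), and those are the only ones among 2510 windows (2.75%) of all Cd24a transcripts that another gene holds. No counted gene carried the symbol Gm6212, so its counts could not be set beside those of Cd24a. Of 16358 windows of Tns1, 6 (0.0367%) recur in other genes.

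The 250 bases before the RefSeq start of Tns1 are shown as the proximal regulatory sequence of the gene whose RNA was higher (RefSeq table, GRCm38.p6, chr1:74124549-74124798, minus strand, read 5′ to 3′). The Cd24a entry was not in that table, so 1 of 2 genes matched. Capitals mark GGGCGG, the SP/KLF box, on either strand.
Tns1 upstream window: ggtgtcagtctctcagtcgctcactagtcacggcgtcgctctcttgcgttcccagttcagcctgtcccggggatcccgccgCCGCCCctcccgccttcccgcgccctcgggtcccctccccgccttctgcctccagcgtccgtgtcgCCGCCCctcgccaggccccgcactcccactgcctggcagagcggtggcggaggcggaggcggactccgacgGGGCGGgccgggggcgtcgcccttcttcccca
This window was 74.4% G or C, against a median of 52.4% over all windows, and held the box at 3 positions, 1 on the strand shown and 2 on the other. At least 1 such box occurred in 32.7% of 32851 windows of that length. The other motifs searched on both strands had no match in it, and were found in the following shares of all windows. The GATA motif AGATAA occurred in 9.99%, the PU.1 motif GAGGAAGT in 2.44% and the AP-1 motif TGANTCA in 6.75%. The E-box CACGTG occurred in 6.02%, the TEAD motif GGAATG in 12.6% and the TATA box TATAAA in 12.4%. These are matches of letters and no evidence of binding.

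Levels are given as CPM (a gene's count divided by the library's total count and scaled to the same total in every library), and fold changes as log2 values of an edgeR fit with its standard error (SE). Depth was 11.35 to 19.04 M counts in the 14 peritoneal libraries of the diet experiment and 7.92 to 27.32 M counts in the refeeding experiment. All 8 defining macrophage markers were counted in every peritoneal group. Their sum, most of it Lyz2, was 82241 to 147958 CPM on normal and high-fat diet and 76977, 101657, 61377, 70682 and 55851 CPM with STZ (cohorts 1 to 5). The sum of each of the mesothelium, fibroblast and epithelium marker lists was at most 2.57 CPM in any of the 14 libraries. The labels do not say whether replicates are separate animals, so p-values measure the spread between these libraries. One library stood apart. In normal-diet replicate 3 only 6.93% of protein-coding counts fell in genes with a transcript over 5 kb, against 15.2 to 17.6% in the other 13. The same library had 538 CPM of Adgre1 and 395 CPM of Csf1r, macrophage markers whose lowest values in the other 13 were 1555 and 1837 CPM. Its level of the lysozyme gene Lyz2 was 144378 CPM, where the highest value in the other 13 was 94452 CPM. It also held the lowest value of Tns1, a gene with long transcripts, and the highest value of Cd24a, one with short transcripts. Results that rest on it are therefore given with and without it, and its part in them beyond that was not tested.

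In peritoneal macrophages of the diet experiment, Tns1 measured 11.2, 17.8, 8.37, 15.5 and 22.2 CPM on normal diet (cohorts 1 to 5). On high-fat diet it measured 41.3, 46.002, 44.5 and 34.4 CPM (cohorts 1, 2, 4 and 5). With STZ it measured 40.9, 84.1, 133, 109.1 and 158 CPM (cohorts 1 to 5). All 4 high-fat libraries and all 5 STZ libraries lay above every normal-diet library. STZ and high-fat libraries overlapped through STZ replicate 1, which equalled the high-fat library of its cohort within 1 CPM, while the other 4 STZ libraries lay above every high-fat one. Group means ± SD were 15.02 ± 5.44 CPM on normal diet, 41.6 ± 5.15 CPM on high-fat diet and 104.9 ± 45.0 CPM with STZ. The ratio of means was 2.77 for high-fat over normal diet, 2.52 for STZ over high-fat diet and 6.98 for STZ over normal diet. Within cohorts the last ratio ran from 3.65 to 15.9, and from 3.65 to 7.10 without cohort 3, which holds the library that stood apart. The fitted log2 differences were 1.46 ± 0.27, 1.14 ± 0.28 and 2.60 ± 0.26. Without normal-diet replicate 3 the normal-diet mean was 16.7 CPM, the STZ ratio 6.29 and its log2 difference 2.42 ± 0.27.

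Cd24a ran the other way. It measured 444, 281, 485, 442 and 341 CPM on normal diet (cohorts 1 to 5). On high-fat diet it measured 287, 160, 230 and 278 CPM (cohorts 1, 2, 4 and 5). With STZ it measured 94.95, 86.3, 56.9, 95.4 and 108.1 CPM (cohorts 1 to 5). Every STZ library lay below every library of both other groups, and the 5 STZ values kept within a narrower fold range than those of Tns1. The normal and high-fat groups overlapped at 1 point, the normal-diet library of cohort 2 lying under the high-fat library of cohort 1, while within each of the 4 shared cohorts the high-fat value was the lower one. Group means were 398.7 ± 84.5, 238.7 ± 58.1 and 88.3 ± 19.2 CPM, so that the normal-diet mean was 1.67 times the high-fat mean and 4.51 times the STZ mean. By cohort the normal-diet value was 3.16 to 8.52 times the STZ value, and 3.16 to 4.68 times without cohort 3. The fitted log2 differences were -0.86 ± 0.27 for high-fat minus normal diet, -1.47 ± 0.26 for STZ minus high-fat diet and -2.33 ± 0.26 for STZ minus normal diet. Without normal-diet replicate 3 they were -0.69 ± 0.12, -1.32 ± 0.13 and -2.001 ± 0.13, and the normal-diet mean was 377 CPM.

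**Figure D1:**
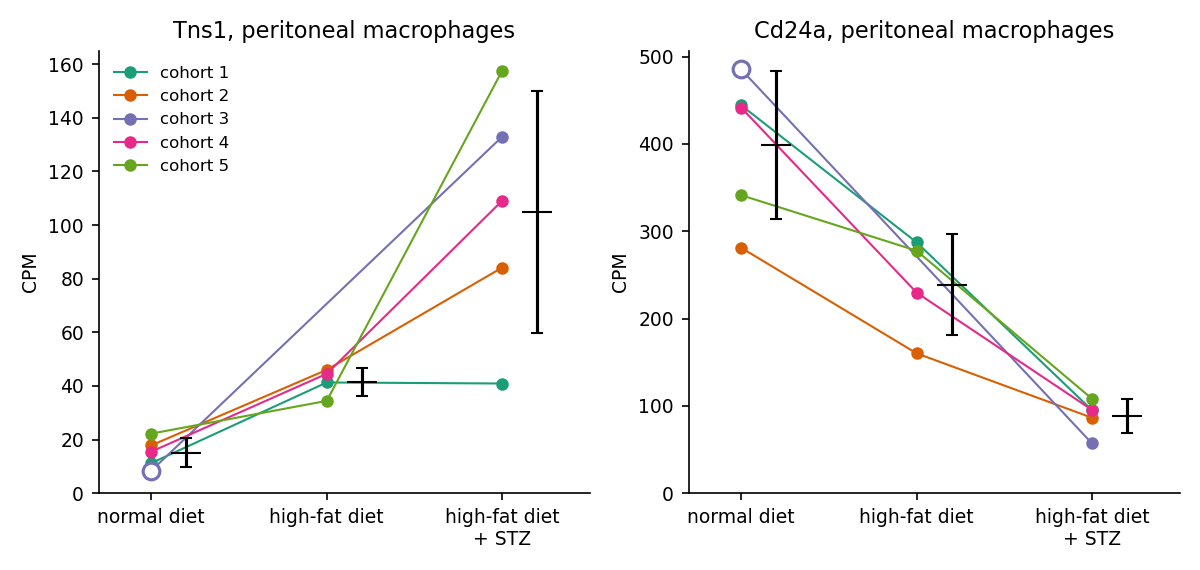
CPM of Tns1 (left) and Cd24a (right) in each peritoneal library of the diet experiment, by diet group; lines join libraries of a cohort, black bars are means ± SD, and the open circle is normal-diet replicate 3. Group means of Tns1 are 15.02, 41.6 and 104.9 CPM and those of Cd24a 398.7, 238.7 and 88.3 CPM, with STZ replicate 1 of Tns1 (40.9 CPM) at the level of the high-fat libraries.

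Both genes can be read against each other within a library, where no scaling enters. The ratio of Cd24a to Tns1 counts was 15.4 to 57.95 on normal diet, 3.48 to 8.07 on high-fat diet and 0.43 to 2.32 with STZ, and the 3 ranges did not overlap. Both genes were chosen for opposite differences with STZ in these libraries, so a separated ratio was built into the choice and is description only. This ratio takes no account of transcript length. Per kilobase of annotated exon, Cd24a was the higher of the pair in each group mean: 155 ± 32.7 against 0.94 ± 0.34 CPM per kb of Tns1 on normal diet, 92.5 ± 22.5 against 2.60 ± 0.32 on high-fat diet and 34.2 ± 7.44 against 6.55 ± 2.81 with STZ. For context, edgeR called 1.29% of 13225 genes in STZ minus normal diet (171 genes, 30 to 301 with 1 library left out, and 922 by DESeq2), 0% in high-fat minus normal diet and 0% in STZ minus high-fat diet. In the last 2 contrasts 468 and 1069 genes had an unadjusted p below 0.05, and DESeq2 called 68 higher and 44 lower in the first and 251 in the second. Because both genes were chosen for these contrasts, nothing is read from their place in those counts. In bulk RNA, a change in the share of cells that carry a transcript and a change in its amount per cell cannot be told apart.

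Markers of large peritoneal macrophages differed among the same libraries. Summed over 11 genes, they stood at 21060 to 27641 CPM on normal diet and 23742 to 24755 CPM on high-fat diet. With STZ they stood at 24535, 24009, 13942, 17095 and 11032 CPM (cohorts 1 to 5). In the 5 STZ libraries the order of Tns1 was the exact reverse of the order of this sum, from cohort 1 (40.9 CPM of Tns1) through cohorts 2, 4 and 3 to cohort 5 (158 CPM). Cd24a did not follow the order of the sum in these libraries, being highest in cohort 5 (108.1 CPM) and lowest in cohort 3 (56.9 CPM). The high-fat libraries lay inside the normal-diet range of the sum, with 34.4 to 46.002 CPM of Tns1 and 160 to 287 CPM of Cd24a. STZ replicates 1 and 2 lay inside that range too, with 40.9 and 84.1 CPM of Tns1 and 94.95 and 86.3 CPM of Cd24a. Of the 11 markers, edgeR called 2 lower in STZ minus normal diet, where it called 1.29% of all 13225 tested genes. They were Gata6, the factor on which these cells depend (28.8 ± 1.95, 23.6 ± 2.87 and 12.7 ± 6.02 CPM, STZ minus normal diet -1.42 ± 0.30, adjusted p 0.0419), and Garnl3 (299 ± 81.6, 279 ± 35.3 and 104.2 ± 63.7 CPM, -1.81 ± 0.34, adjusted p 0.0285). Both calls were lost without normal-diet replicate 3 (Gata6 -1.18 ± 0.31, adjusted p 0.0823, and Garnl3 -1.58 ± 0.40, adjusted p 0.0949), where Icam2 alone of the list was called, and that of Gata6 also without cohort 2 (-1.55, adjusted p 0.0605). The median over the 11 markers was -0.77, against -0.01 over all tested genes. Markers of small peritoneal macrophages and dendritic cells summed to 1908 to 5961 CPM on normal diet and 2108 to 3646 CPM on high-fat diet. With STZ they summed to 2068, 4174, 6706, 6889 and 5223 CPM (cohorts 1 to 5), so that cohorts 3 and 4 lay above every normal-diet library and cohort 5 above all of them but that of cohort 2 (5961 CPM). Of 14 tested genes 0 were called in STZ minus normal diet (1.29% of all tested genes called), with a list median of 0.52. The part of either shift in the levels of Tns1 and Cd24a was not tested.

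**Figure D2:**
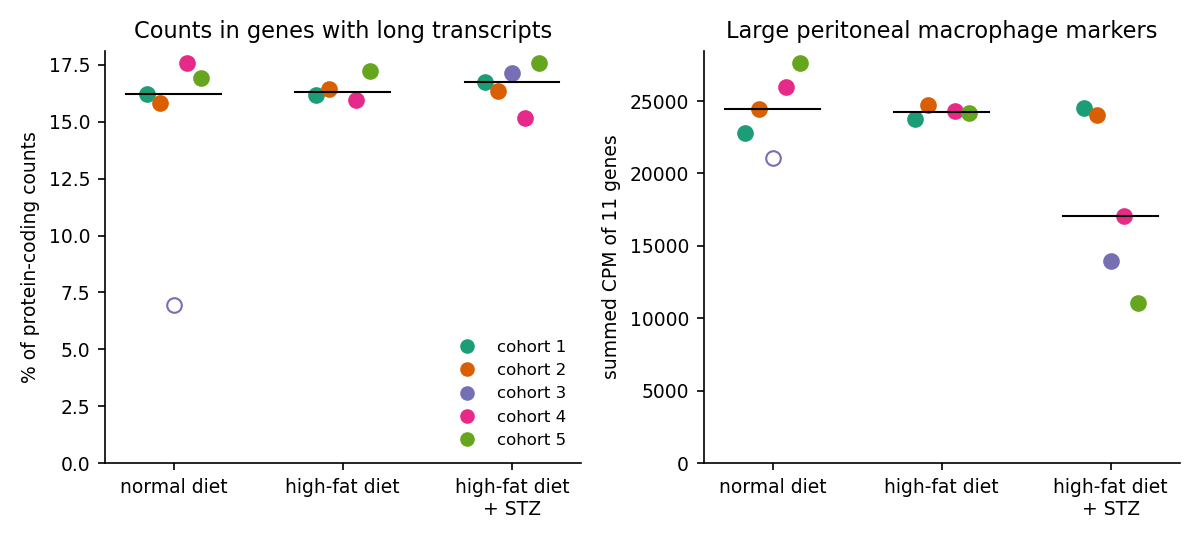
Left, the share of protein-coding counts in genes with a transcript over 5 kb, and right, the summed CPM of 11 large peritoneal macrophage markers, for each peritoneal library of the diet experiment (black lines, medians; open circle, normal-diet replicate 3). That library has 6.93% on the left against 15.2 to 17.6% in the rest, and on the right 3 of 5 STZ libraries lie below every other library.

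CD24 marks B cells, so their RNA was read beside it. Summed over 11 B cell genes it was highest in cohort 2 of each group (385, 145 and 219 CPM on normal diet, high-fat diet and with STZ) and at most 51.2 CPM in the other 11 libraries. On normal diet it was 51.2, 385, 41.2, 18.3 and 33.97 CPM (cohorts 1 to 5). With STZ it was 26.1, 219, 4.01, 11.3 and 4.76 CPM, lower in every cohort, as Cd24a was. In STZ minus normal diet 0 of 11 tested B cell genes were called (1.29% of all tested genes), with a list median of -1.64. Of 5 tested plasma cell genes 0 were called, with a median of -1.63. The cohort 2 libraries held the lowest Cd24a of the normal and high-fat groups (281 and 160 CPM) and the second lowest of the STZ group (86.3 CPM), and the part of B cell RNA in these levels was not tested. Mast cell markers, too, were highest there (119.3, 101.4 and 121 CPM). With cohort 2 left out, an alternative chosen after seeing the data, the log2 difference of STZ minus normal diet was 2.72 ± 0.32 for Tns1 and -2.48 ± 0.30 for Cd24a. Neutrophil markers summed to at most 35.97 CPM in every one of the 14 libraries.

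Of the 3 other tensins, 1 was called in STZ minus normal diet, where 1.29% of all tested genes were. Tns3, a tensin that likewise binds integrin tails, rose with STZ from 4.00 ± 2.31 to 17.5 ± 8.98 CPM (7.95 ± 3.53 CPM on high-fat diet, STZ minus normal diet 2.06 ± 0.40, adjusted p 0.0296, and 0.0457 without normal-diet replicate 3). With cohort 2 left out the difference was 2.002 and its adjusted p 0.0659. Tns2 stood at 4.83 ± 1.79 and 6.18 ± 1.11 CPM (adjusted p 0.601) and Tns4 at 38.1 ± 4.70 and 40.5 ± 5.43 CPM (adjusted p 0.749) on normal diet and with STZ. Of 28 tested integrin adhesion genes, against a background of 1.29% called, 0 rose and 1 fell, namely Parvb, whose product parvin beta links integrin-linked kinase to actin (26.01 ± 7.86 CPM on normal diet, 28.9 ± 1.35 on high-fat diet, 13.3 ± 1.58 with STZ, -1.10 ± 0.19, adjusted p 0.0184). The median of the list was 0.01, against -0.01 over all tested genes.

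Among partners of CD24, 1 of 15 tested genes rose and 1 fell between normal diet and STZ (1.29% of all genes called), with a list median of -0.02. Siglec1, the sialic acid receptor CD169 of macrophages, rose from 19.1 ± 11.02 to 105.5 ± 49.2 CPM (2.33 ± 0.44, adjusted p 0.0272), a call lost without normal-diet replicate 3 (2.07 ± 0.53, adjusted p 0.0961). Siglece, an inhibitory receptor for sialic acid on myeloid cells, fell from 16.95 ± 3.70 to 6.53 ± 1.77 CPM (-1.57 ± 0.25, adjusted p 0.0134, and 0.0212 without that library), with 8.11 ± 2.08 CPM on high-fat diet. Siglecg, which encodes the Siglec-G partner of CD24, had means of 6.27 ± 10.9, 5.78 ± 6.78 and 4.84 ± 8.37 CPM on normal diet, high-fat diet and with STZ (STZ minus normal diet, adjusted p 0.457). Cohort 2 was highest in each group (25.8, 15.7 and 19.7 CPM), and the means without it were 1.39, 2.48 and 1.12 CPM. Of 28 tested genes that build and remodel the GPI anchor, 0 were called in any of the 3 contrasts, and their median was -0.16 in STZ minus normal diet. When each of the 14 libraries was left out in turn, edgeR called Siglece in 12 fits, Parvb in 11, Tns3 in 10, Siglec1 and Garnl3 in 8 each and Gata6 in 3, with a highest adjusted p of 0.127, for Gata6. The 3 contrasts share libraries, so their counts are not independent of each other.

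The refeeding experiment gives both genes in peritoneal macrophages that the choice did not use. Tns1 ran from 1.53 through a median of 21.7 to 72.5 CPM in 8 fasted libraries, and from 6.91 through 30.3 to 56.4 CPM in 8 refed libraries. Cd24a ran from 242 through 338 to 532 CPM fasted, and from 244 through 320 to 552 CPM refed. The groups overlapped almost whole for both genes. Refed minus fasted, edgeR gave 0.15 ± 0.59 for Tns1 (adjusted p 0.975) and 0.11 ± 0.19 for Cd24a (adjusted p 0.933), where it called 0.432% of 11331 genes. All 16 Cd24a values lay above the 5 STZ values of the diet experiment, and all 16 Tns1 values lay below 4 of them, in tables from different cell numbers. With the replicate number as a replicate block in place of the cohort the differences were 0.15 ± 0.86 and 0.04 ± 0.20.

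Whether Tns1 and Cd24a also run against each other without high-fat diet or STZ was asked in these 8 fasted and 8 refed libraries. The question was chosen after seeing the data. On log2(CPM + 1), Pearson r was -0.52 (permutation p 0.0381) and Spearman rho -0.33 (permutation p 0.214). Adjusted over the 6 coefficients computed, these became 0.229 and 0.364. Without the 2 libraries farthest from the Tns1 median r was -0.03, a step that also narrows the range of Tns1. Within the 8 fasted libraries r was -0.62 (exact permutation p 0.101) and rho -0.33 (exact permutation p 0.428), with r turning to 0.54 without the 2 farthest. Within the 8 refed libraries r was -0.46 (exact permutation p 0.242) and rho -0.36 (exact permutation p 0.389), with r -0.24 without the 2 farthest. The permutations did not keep cohorts together. The adjusted values of these 4 coefficients were 0.303 to 0.428. After subtraction of cohort means r was -0.47 in all 16, -0.67 in the fasted and -0.92 in the refed libraries, and these were not tested.

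**Figure D3:**
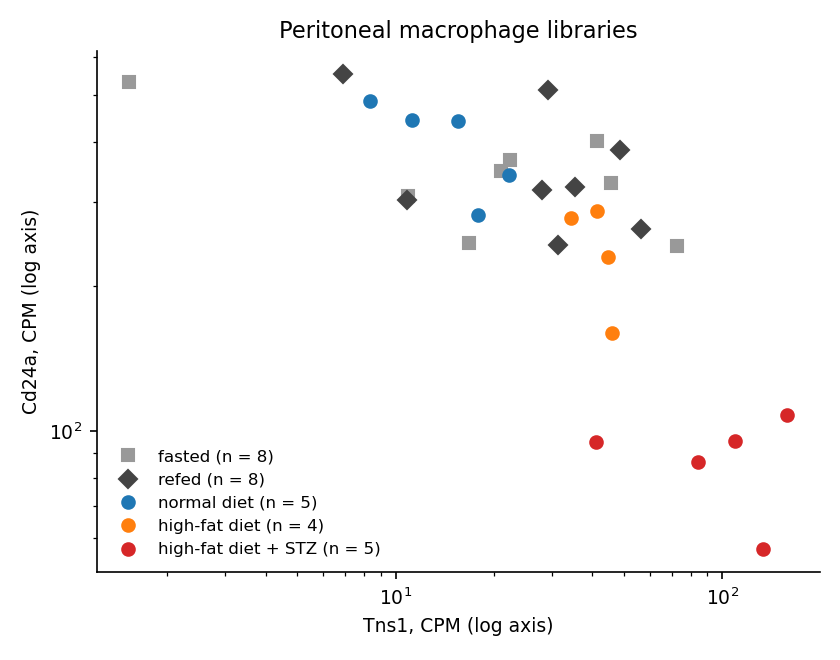
Cd24a against Tns1 in the 30 peritoneal libraries of both experiments, in CPM on log axes, 1 point a library. The 5 STZ libraries lie lowest on Cd24a (56.9 to 108.1 CPM) and, but for 1, highest on Tns1, while fasted and refed libraries spread over 1.53 to 72.5 CPM of Tns1 at 242 to 552 CPM of Cd24a.

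Across the 7 fasted populations, Tns1 was highest in adipose tissue macrophages, with 132, 211 and 330 CPM as the lowest, median and highest of 8 libraries. Microglia followed with 8.93, 101.8 and 155 CPM, then islet macrophages with 37.1, 67.1 and 86.1 CPM. Colonic macrophages measured 10.9, 56.8 and 149 CPM and Kupffer cells 1.99, 42.2 and 71.3 CPM. Peritoneal macrophages, at 1.53, 21.7 and 72.5 CPM, ranked sixth of the 7 by mean, and blood monocytes came last at 0, 7.44 and 36.9 CPM. Neighbours in this order were compared in 1 fit over all fasted libraries. Peritoneal macrophages exceeded monocytes by 1.91 ± 0.61 (adjusted p 0.0256 over genes, with 14.7% of 16114 genes called). Adipose tissue macrophages exceeded microglia by 1.45 ± 0.59, which did not pass over genes (adjusted p 0.0765, 21% called). The steps from microglia to islet (0.34 ± 0.63, adjusted p 0.761, 21.5% called), islet to colonic (0.11 ± 0.63, adjusted p 0.97, 8.98% called), colonic to Kupffer (0.25 ± 0.67, adjusted p 0.924, 8.98% called) and Kupffer to peritoneal cells (1.05 ± 0.66, adjusted p 0.348, 15.5% called) were within the spread of libraries.

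Cd24a had another order. Peritoneal macrophages were highest (242, 338 and 532 CPM as lowest, median and highest), followed by colonic macrophages (57.3, 186 and 346 CPM), and this step did not pass (0.87 ± 0.83, adjusted p 0.554, 21.8% of genes called). Colonic libraries carried RNA of cells in which CD24 is well known, with 4.34 to 514 CPM summed over 6 epithelial markers and 640 to 2400 CPM over 10 neutrophil markers in the fasted group, and its part in their Cd24a was not tested. Colonic exceeded adipose tissue macrophages (0, 20.8 and 135 CPM) by 2.62 ± 0.88 (adjusted p 0.0453, 11.3% called). Adipose tissue macrophages, monocytes (5.33, 19.6 and 50.8 CPM) and Kupffer cells (0.105, 22.8 and 34.04 CPM) did not differ beyond their spread, with steps of 0.52 ± 0.84 (adjusted p 0.783, 16.8% called) and 0.36 ± 0.91 (adjusted p 0.888, 17.2% called). Kupffer cells exceeded islet macrophages (0, 0.0816 and 13.1 CPM, adjusted p 0.0449, 13.5% called). Islet macrophages and microglia (0, 0.0919 and 0.52 CPM) were near the limit of counting: 4 of 6 islet and 6 of 8 microglia libraries held 3 or fewer counts, and 1 islet library held the 13.1 CPM. No fold against either is therefore given, although the step between them passed (adjusted p 0.0196, 21.5% called).

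**Figure D4:**
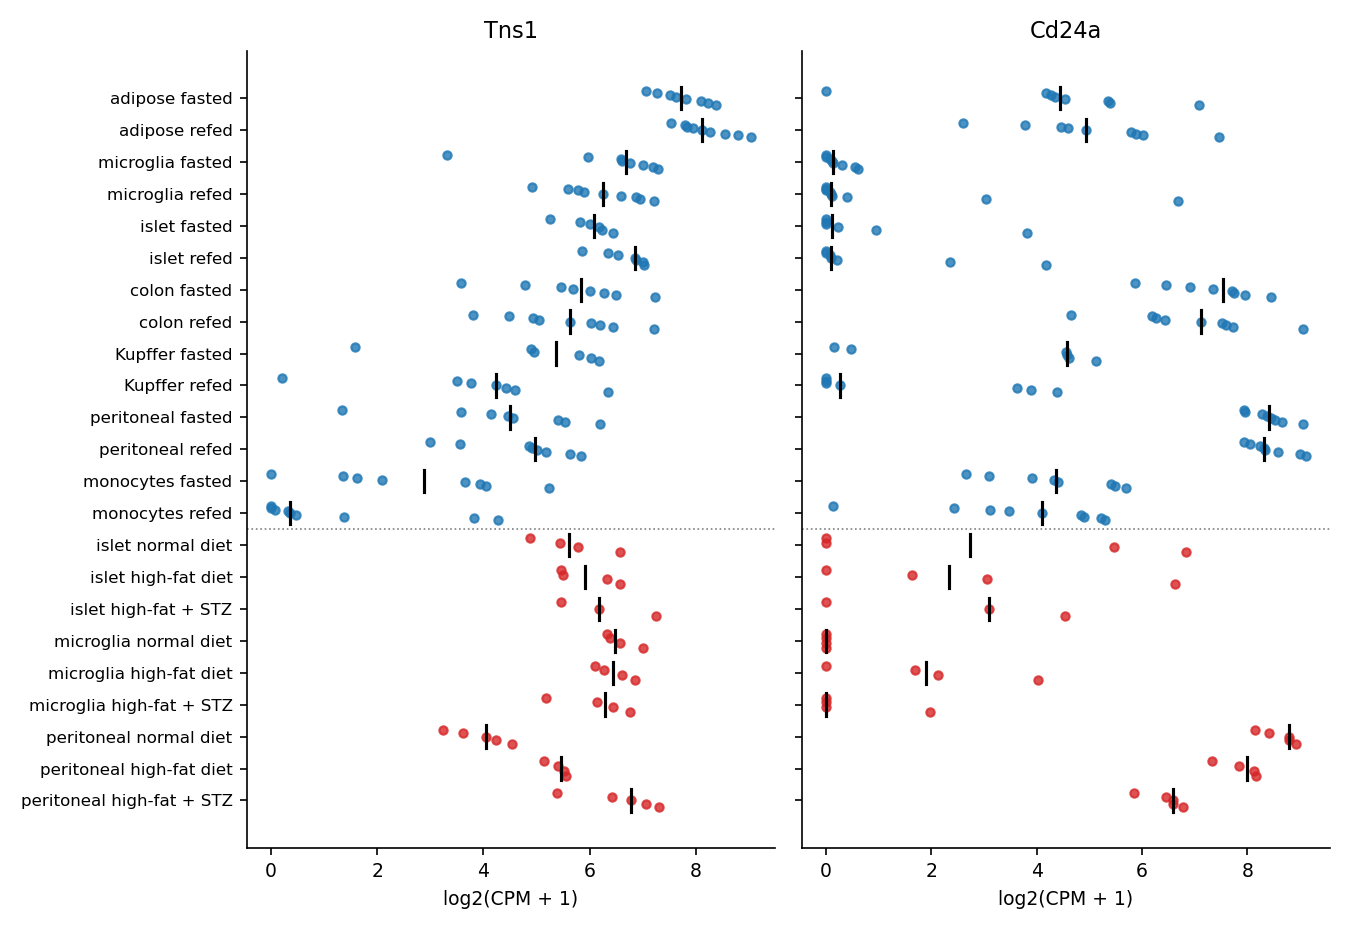
log2(CPM + 1) of Tns1 (left) and Cd24a (right) in all 147 libraries by population and treatment, refeeding experiment in blue and diet experiment in red; black lines are medians. Tns1 is counted in every population and lowest in monocytes, while Cd24a is high in peritoneal and colonic macrophages and near 0 in most microglia and islet libraries.

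Refeeding moved neither gene past the threshold in any population in which it was tested. Tns1 passed the filter on low counts in all 7 populations and Cd24a in 5, not in microglia and islet macrophages. Outside peritoneal macrophages edgeR called 0% of the 10059 to 11856 tested genes, with 243 to 564 genes at an unadjusted p below 0.05, and DESeq2 called 369 to 1491 genes. In adipose tissue macrophages Tns1 ran from 183 through 275 to 522 CPM in 9 refed libraries, 0.48 ± 0.19 above the fasted ones (adjusted p 0.865). In islet macrophages it ran from 57.2 through 114.8 to 130 CPM in 7 refed libraries, 0.67 ± 0.24 above (unadjusted p 0.0145, adjusted p 1), and refed and fasted libraries overlapped in both populations. Tns1 stood lower after refeeding in Kupffer cells (0.152, 17.9 and 79.8 CPM refed, -1.004 ± 0.84, adjusted p 1), microglia (29.2, 75.5 and 147 CPM, -0.40 ± 0.41, adjusted p 1), monocytes (0, 0.282 and 18.4 CPM, -2.06 ± 1.93, adjusted p 1) and colonic macrophages (12.9, 48.3 and 148 CPM, -0.06 ± 0.37, adjusted p 1). None of these 4 differences reached 1.5 times its SE.

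Cd24a after refeeding ran from 5.03 through 29.7 to 174 CPM in adipose tissue macrophages (0.46 ± 0.71, adjusted p 0.999) and from 0.101 through 16.1 to 38.2 CPM in monocytes (-0.71 ± 0.71, adjusted p 1). In colonic macrophages it ran from 24.1 through 138 to 532 CPM (-0.27 ± 0.49, adjusted p 1). In Kupffer cells it ran from 0 through 0.203 to 19.8 CPM, where 3 of 7 refed libraries had 0 counts (-2.59 ± 1.90, adjusted p 1). Every fasted and refed pair of ranges overlapped. In microglia 7 of 9 refed libraries held at most 0.323 CPM, and the exceptions were replicate 6 at 102.2 CPM and replicate 5 at 7.23 CPM. Replicate 6 held 3518 CPM of B cell and 1320 CPM of neutrophil markers and replicate 5 held 1741 CPM of neutrophil markers, where no other refed microglia library passed 89.2 and 2.18 CPM. The part of those cells in its Cd24a was not tested. A joint fit asked whether the effect of refeeding differed among the 7 populations, and it did not pass for Tns1 (F 1.02, adjusted p 0.881) or Cd24a (F 2.93, adjusted p 0.0834), with 10.1% of 18640 genes called.

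The diet experiment tests both genes in islet macrophages and microglia. There edgeR called 0% of 12406 islet and 0% of 13972 microglia genes in each of the 3 contrasts, with 300 to 702 islet and 300 to 666 microglia genes at an unadjusted p below 0.05 and 1906 to 2039 and 130 to 277 called by DESeq2. In islet macrophages Tns1 measured 42.2, 53.6, 93.7 and 28.3 CPM on normal diet (cohorts 1, 3, 4 and 5), 93.5, 43.2, 79.1 and 43.9 CPM on high-fat diet (same order), and 71.5, 151 and 43.2 CPM with STZ (cohorts 3, 4 and 5). The ranges overlapped, while within each of the 3 shared cohorts the STZ value was above the normal-diet one. STZ minus normal diet was 0.72 ± 0.37 (adjusted p 0.87), high-fat minus normal diet 0.31 ± 0.34 (adjusted p 1) and STZ minus high-fat diet 0.41 ± 0.38 (adjusted p 0.999). The peritoneal difference of STZ minus normal diet was 2.60 ± 0.26, and the gap between both populations was not tested.

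Islet Cd24a was 0, 43.3, 0 and 113.5 CPM on normal diet (cohorts 1, 3, 4 and 5), 0, 7.28, 2.08 and 97.4 CPM on high-fat diet, and 7.54, 22.3 and 0 CPM with STZ (cohorts 3, 4 and 5). Group means were 39.2 ± 53.6, 26.7 ± 47.2 and 9.95 ± 11.4 CPM, and each group held libraries at 0 beside high ones, so that the ranges overlapped. The 2 highest, both of cohort 5, also held 1042 and 1295 CPM of B cell and 7560 and 13487 CPM of plasma cell markers, where the other 9 islet libraries reached 131 and 28.7 CPM, and the part of those cells was not tested. The fitted differences were smaller than their SE (-0.26 ± 3.25 for STZ minus normal diet, -1.02 ± 2.26 for high-fat minus normal diet and 0.76 ± 3.21 for STZ minus high-fat diet, adjusted p 1, 1 and 0.999), and the sign of each changed with the libraries left out.

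In microglia Tns1 measured 81.98, 79.1, 128 and 94.4 CPM on normal diet, 67.4, 75.6, 114.1 and 96.4 CPM on high-fat diet and 35.02, 69.0, 85.7 and 107.9 CPM with STZ. All groups overlapped, and the means lay opposite to the peritoneal order. STZ minus normal diet was -0.52 ± 0.24 (unadjusted p 0.0498, adjusted p 1), STZ minus high-fat diet -0.42 ± 0.24 (adjusted p 1) and high-fat minus normal diet -0.10 ± 0.21 (adjusted p 1). Microglia Cd24a had 0 counts in all 4 normal-diet libraries, which allows up to 0.154 CPM a library on average (3 counts, counting error only). On high-fat diet it measured 0, 15.3, 3.34 and 2.23 CPM, a mean at least 33.95-fold higher than that limit (at least 12.1-fold without the library at 15.3 CPM), and with STZ 0, 0, 0 and 2.92 CPM. The difference between high-fat and normal diet did not pass (unadjusted p 0.0237, adjusted p 1), nor did those of STZ (adjusted p 1 each). The library at 15.3 CPM held 2034 CPM of neutrophil markers, the most of the 12, while the one with the next highest sum (1107 CPM, high-fat replicate 2) had 0 counts of Cd24a. The library at 15.3 CPM also had the highest erythroid marker sum of the 12 (211.8 CPM), against 0 CPM in high-fat replicate 2. The next highest erythroid sum (118.7 CPM, STZ replicate 9) went with 0 counts of Cd24a. The part of either cell type in these Cd24a values was not tested.

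**Figure D5:**
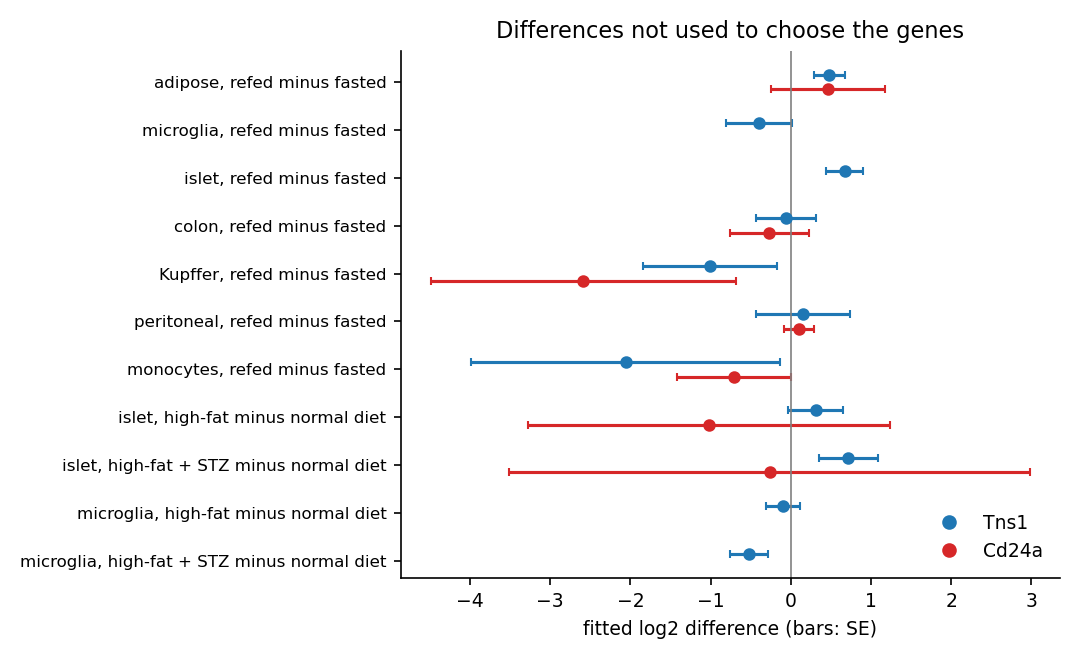
Fitted log2 differences of Tns1 (blue) and Cd24a (red) with SE in the comparisons that did not choose them: refed minus fasted in 7 populations, and both diet groups minus normal diet in islet macrophages and microglia; Cd24a is left out where it was not tested and in microglia of the diet experiment, whose normal-diet libraries held 0 counts. None passed an adjusted p of 0.05; Tns1 in islet macrophages lies at 0.67 ± 0.24 after refeeding and at 0.72 ± 0.37 with STZ.

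The genes most alike to each in pattern were taken by Pearson r of log2(CPM + 1) over the 14 peritoneal libraries of the diet experiment, which share their cohorts and hold the contrast that chose both genes. For Tns1 they included Nrp2 (r 0.97), a co-receptor of semaphorins and VEGF, Enpp1 (0.94), Selenop (0.94) and Emp1 (0.93). Nrp2 went from 1.39 to 4.62 and 15.1 mean CPM over normal diet, high-fat diet and STZ, and Selenop, a secreted selenium carrier, from 924 to 1230 and 2218. For Cd24a they were Msrb2 (0.96), Ubash3a (0.94), Gm16587 (0.94), Gm32511 (0.93) and Fkbp11 (0.92), of which Ubash3a, a suppressor of T cell receptor signalling, went from 65.3 to 23.2 and 6.11 mean CPM. Without normal-diet replicate 3 these 9 values were 0.91 to 0.97. Over the 16 peritoneal libraries of the refeeding experiment the same pairs gave -0.37 to 0.50, with Selenop highest. Over the means of all 23 groups other genes were most alike: Tubb2a (0.84), Spred1, Cd63, Blnk and Atp6v0a1 (0.82) for Tns1, and Gfi1b (0.94), Serpinb1a, Aqp9, F5 and Acpp (0.91) for Cd24a.

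The nearest protein-coding genes are given for comparison. Rufy4 starts 1.09 kb from Tns1 on the other strand and measured 0.64 ± 0.36, 0.26 ± 0.14 and 0.61 ± 0.33 CPM on normal diet, high-fat diet and with STZ. On the other side Tnp1, 894 kb away, had 0 counts in all 14 libraries. Beside Cd24a, 1700021F05Rik (37.3 kb away) measured 20.1 ± 2.73, 19.1 ± 4.96 and 17.7 ± 1.72 CPM, and Qrsl1 (290 kb away) 12.5 ± 3.79, 11.3 ± 0.82 and 12.6 ± 2.51 CPM.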

How the data were processed

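The submitters deposited raw read counts per gene for 147 polyA Smart-seq2 libraries of cells sorted by flow cytometry. Per the submitters' processing notes, the tools were Trimmomatic 0.36, STAR 2.5.1a and featureCounts with build mm10; annotation release, use of strand and handling of multi-mapping reads were not stated there. Of 50686 Ensembl identifiers, 50376 matched a GENCODE M21 symbol without the version (45737 with it), and 0.0438% of counts had no symbol. Among 443 library pairs of a group, 0 were identical.

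CPM were computed on total counts. Fits used edgeR 4.0.16 in R 4.3.3 (filterByExpr, trimmed mean of M values, robust quasi-likelihood F test, Benjamini-Hochberg over tested genes, called below 0.05), within each population and with the cohort as a term; DESeq2 1.42.0 was an alternative. For the diet experiment's peritoneal and islet libraries, replicate numbers equal cohorts, and the cohort term there is a replicate block. Their same-numbered residuals had a mean correlation of 0.17 in 13 peritoneal pairs (9 above 0.1) and 0.07 in 10 islet pairs (2 above 0.1). Libraries made from few cells without molecular identifiers vary more than counting error. The edgeR script was tested on simulated counts.

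Both genes, the gene lists and the naming rule were chosen with earlier results of these data known. Named besides both genes were the tensin family, list genes called in a peritoneal contrast, the 5 genes most alike in pattern (mean of at least 1 CPM; 1 of them is not reported here), the nearest coding neighbours, and markers that moved with a level. Icam2, Siglecg, Adgre1, Csf1r and Lyz2 were named after their values were seen. Leaving out normal-diet replicate 3 and each other diet library in turn, other scaling, no filter and no block were tried.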

Additional observations from a re-analysis of the deposited data

Results flagged for a closer look

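In 10 of 43 groups of 4 to 10 libraries, 1 library lay far from the rest for Tns1 or Cd24a (Dixon's gap test on CPM). The rate of about 5% that chance alone passes holds for normally distributed values. CPM with many values near 0 are not so distributed, so the number flagged is not read as an excess. For Tns1 the flagged libraries were fasted monocyte replicate 5 at 36.9 CPM and refed Kupffer replicate 1 at 79.8 CPM, a library whose description names fasting only. For Cd24a, fasted adipose replicate 5 stood at 135 CPM, with the highest B cell (209 CPM) and mesothelium (83.0 CPM) marker sums of its group. Refed adipose replicate 6 stood at 174 CPM, with 20.1 CPM of B cell and 316 CPM of neutrophil markers, the last being the lowest of its group. Refed colonic replicate 8 stood at 532 CPM, with the highest epithelial marker sum of its group (1608 CPM). Refed microglia replicate 6 stood at 102.2 CPM beside 3518 CPM of B cell markers. Among islet libraries, replicate 1_2 stood at 13.1 CPM in the fasted and 16.97 CPM in the refed group, beside 480 and 234 CPM of large peritoneal macrophage and 265 and 93.9 CPM of neutrophil markers. Replicate 5_6 of both groups held more of both marker sets (641 and 255 CPM, and 393 and 204 CPM) and had 0 counts of Cd24a. Refed replicate 1_2 also held 92.01 CPM of B cell and 91.3 CPM of plasma cell markers. The other refed islet libraries reached 31.3 and 11.6 CPM, with 21.6 and 0.78 CPM in replicate 5_6. Its fibroblast and epithelial marker sums, too, were the highest of the refed group. Fasted replicate 1_2 held 0.135 CPM of B cell and 7.95 CPM of plasma cell markers. High-fat islet replicate 5 stood at 97.4 CPM beside 13487 CPM of plasma cell markers. Microglia replicate 15 with STZ stood at 2.92 CPM, where the other 3 had 0 counts. Whether the other cells' RNA accounts for any of these values was not tested.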

How the results depend on the processing

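In peritoneal macrophages the 3 log2 differences of each gene kept their sign under every alternative run, and moved by less than the pooled SD of log2(CPM + 1) within groups (0.54 for Tns1, 0.35 for Cd24a) (other scaling, no low-count filter, DESeq2, no replicate block, without each replicate, without cohort 2). In STZ minus normal diet, without each replicate, Tns1 ran from 2.42 to 2.80 and Cd24a from -2.49 to -2.001, and without the replicate block they were 2.64 and -2.38. Both genes were chosen for large differences in the peritoneal libraries, so the kept signs there are description only. Islet Cd24a changed sign. Leaving out 1 replicate gave -2.79 to 0.62 (high-fat minus normal diet), -3.60 to 1.95 (STZ minus normal diet) and -4.22 to 2.67 (STZ minus high-fat diet), leaving out cohort 5 (like cohort 2, chosen after seeing the data) gave 1.55 in the second, and fitting without the replicate block gave -1.36 in the third. No adjusted p passed there. The interaction of refeeding and population for Cd24a passed without the low-count filter (F 19.4, adjusted p 2.97e-20); the cause was not tested. Counts of called genes changed with the settings, too. In the peritoneal contrasts (0, 171 and 0 called in high-fat minus normal diet, STZ minus normal diet and STZ minus high-fat diet), no filter gave 10 higher and 12 lower, 710 and 166 and DESeq2 68 higher and 44 lower, 922 and 251. The third was 8 with RLE scaling, 34 with no replicate block and 15 without cohort 2. Without 1 replicate they ran from 0 to 1 higher and 0 to 1 lower, 30 to 301 and 0 to 64, the extremes of the second being STZ replicates 4 and 2 and the highest of the third STZ replicate 2. In islets (0 called), DESeq2 gave 1906, 2039 and 1939, and STZ minus normal diet gave 3 with RLE scaling, 4 without filter, 1 without cohort 5 and 0 to 1 without 1 replicate. In microglia (0 called), no filter gave 30, 10 and 48, DESeq2 130, 198 and 277, and leaving out 1 replicate 0 to 1. After refeeding (49 called in peritoneal macrophages, 0 elsewhere), no filter gave 312 in peritoneal macrophages, 96 in adipose tissue macrophages, 6 in monocytes, 13 in microglia, 143 in colonic macrophages, 8 in islet macrophages and 37 in Kupffer cells. DESeq2 gave 598, 738, 423, 1491, 400, 513 and 369 in the same order, and the replicate block in place of the cohort 0 in peritoneal macrophages. The cause of these moves was not tested. In the refeeding experiment most microglia and islet libraries held 3 or fewer counts of Cd24a, which limits its precision there.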

Other observations

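The descriptions of 4 refed libraries mention a fast alone, although title and treatment field both call them refed. In them Tns1 stood at 80.2 and 57.2 CPM (islet replicates 1_2 and 3) and at 79.8 and 20.4 CPM (Kupffer replicates 1 and 2), the islet ones holding the lowest values of the refed group and the Kupffer ones the highest and, behind replicate 4, the next. Without them, refed minus fasted for Tns1 was 0.71 ± 0.25 in islet macrophages and -1.32 ± 1.07 in Kupffer cells, with an adjusted p of 1 by edgeR in both, against 0.67 ± 0.24 and -1.004 ± 0.84 with them. Cd24a in Kupffer cells was -4.03 ± 2.76 without them and -2.59 ± 1.90 with them.

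On normal diet, the order of the 3 populations of the diet experiment was the one seen in fasted mice. Tns1 had a mean of 15.02 ± 5.44 CPM in peritoneal macrophages, 54.4 ± 28.1 CPM in islet macrophages and 95.8 ± 22.3 CPM in microglia. Cd24a had 398.7 ± 84.5, 39.2 ± 53.6 and 0 CPM. Population, starting cell number and, for microglia, cohort cannot be told apart in these libraries, and the peritoneal ones were used to choose the genes. With STZ the peritoneal mean of Tns1 (104.9 CPM) lay within the range of the 4 normal-diet microglia libraries (79.1 to 128 CPM).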
